A study of Mus musculus with 6 samples.

Results

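The 32 genes described here encode enzymes, transporters and regulators by which the liver makes, stores, breaks down and interconverts glucose, glycogen and fructose. They were taken by symbol, and all 32 were found among the 24197 genes of the expression table. The tissue was liver of intact CD-1 mice, an outbred stock, with 3 male and 3 female libraries of poly-A selected RNA made with a strand-specific kit. Each male library pooled 17 livers of mice 7 to 9 weeks old, and each female library pooled 12 livers of mice 7 to 11 weeks old, so pool size, the upper limit of age and sex cannot be told apart. Feeding state and time of day at collection, on which many of these genes depend, are not given in the labels. Values per pool were not used here: each level is the authors' mean over the 3 pools of a sex and carries no standard deviation. Levels are in FPKM, fragments scaled to gene length and library total, and folds are the authors' normalized ratio of male to female. A gene is said to be higher in a sex where the authors' adjusted p was under 0.05.

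Hepatocytes phosphorylate glucose and send it to glycogen, to glycolysis or to the pentose phosphate pathway. In fasting they release glucose again, from glycogen through glycogen phosphorylase and from lactate, amino acids and glycerol through gluconeogenesis, both of which end at glucose-6-phosphatase. Insulin, glucagon and the sugar-responsive factor ChREBP (gene Mlxipl) set the balance of these routes, largely through a few committed enzymes, while most steps of glycolysis are shared by both directions.

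Library totals worked out from the lowest FPKM values lay between 28358105 and 41206357 reads in the female pools and between 28415535 and 42673908 in the male pools. At these totals 1 read on 1000 bases in 1 pool adds between 0.00781 and 0.0118 FPKM to a sex's mean. Of 6 hepatocyte markers, all abundant, 2 were higher in female (Alb among them, at 19411 against 12608 FPKM) and 1 in male liver, with Ttr at 1718 FPKM in females and 1725 FPKM in males, and the muscle markers Ckm and Acta1 were listed at 0 in both sexes. All 6 Kupffer cell markers were higher in female liver (summed mean 102.3 against 64.2 FPKM), and 4 of 5 red cell precursor markers were higher in male liver (169.1 against 91.3 FPKM). None of 6 sinusoidal endothelial markers passed in the authors' deposited table, with all 6 ratios below 1 (summed means of 52.1 FPKM in females and 44.0 FPKM in males). Of the stellate cell markers 2 of 6, and of the lymphocyte markers 2 of 5, were higher in female liver, 1 of 5 bile duct markers was higher in male liver, and no fat marker passed. These marker counts use no minimum level. Slc4a1, 1 of the 4 red cell precursor markers, had 0.0225 FPKM in females and 0.108 FPKM in males. Cd3e, 1 of the 2 lymphocyte markers, had 0.493 FPKM in females and 0.153 FPKM in males. In bulk RNA fewer cells of a type and less RNA per cell cannot be told apart.

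Promoter windows were taken from RefSeq (build GRCm38.p6, 250 bases before to 50 after a start site), where 30 of the 32 genes, all but Gys2 and Ppp1r3b, matched with 45 start sites. Shown are windows of 3 genes that differed between the sexes, Pklr, Ldha and Pfkfb3, picked because they hold a motif marked below. Fbp1, Gckr, Gbe1 and G6pdx also differed, and their windows hold none of the marked motifs. Khk, Pcx and Ppp1r3c hold an E-box and were not higher in either sex. Capitals mark the E-box CACGTG, the cAMP element TGACGTCA, or 2 imperfect E-boxes 5 bases apart (searched as CACGNG and CNCGTG with any 5 bases between), the arrangement known as the carbohydrate response element that ChREBP binds in the liver-type promoter of Pklr. That motif was added with the known element in mind. The Pklr window (chr3:89136373-89136672, plus strand) lies at the second of its 2 start sites, the Ldha window (chr7:46845554-46845853, plus strand) at the first of 2, and the Pfkfb3 window (chr2:11502041-11502340, minus strand) at the start of its shorter transcripts.
Pklr: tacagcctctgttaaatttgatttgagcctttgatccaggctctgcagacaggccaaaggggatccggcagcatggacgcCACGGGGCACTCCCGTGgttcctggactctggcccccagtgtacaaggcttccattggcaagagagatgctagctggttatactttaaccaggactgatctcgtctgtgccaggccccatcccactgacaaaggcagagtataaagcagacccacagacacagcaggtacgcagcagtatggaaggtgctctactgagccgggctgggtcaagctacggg
Ldha: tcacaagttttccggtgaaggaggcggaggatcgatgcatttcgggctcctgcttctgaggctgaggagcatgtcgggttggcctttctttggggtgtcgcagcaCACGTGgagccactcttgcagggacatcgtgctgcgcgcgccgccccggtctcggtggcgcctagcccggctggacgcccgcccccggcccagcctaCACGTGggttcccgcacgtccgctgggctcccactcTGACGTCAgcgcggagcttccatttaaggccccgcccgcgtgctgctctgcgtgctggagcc
Pfkfb3: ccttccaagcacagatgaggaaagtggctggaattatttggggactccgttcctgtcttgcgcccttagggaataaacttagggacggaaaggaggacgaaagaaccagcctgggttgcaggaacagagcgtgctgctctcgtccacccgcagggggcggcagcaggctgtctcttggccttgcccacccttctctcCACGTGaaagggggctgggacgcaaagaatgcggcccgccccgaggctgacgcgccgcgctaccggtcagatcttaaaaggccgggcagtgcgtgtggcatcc

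The paired element was found in 1 of the 45 windows, beginning at position -170 of Pklr (counted from -1 just before the start site), and in 15 of all 32851 promoter windows (0.0457%). An E-box was found in 5 of the 45 windows, those of Khk, Ldha, Pcx, Pfkfb3 and Ppp1r3c (11.1% against 7.15% of all windows). The Ldha window held E-boxes beginning at positions -145 and -48 and the only exact match to TGACGTCA of the 45 (1.79% of all windows hold one). The hypoxia core ACGTG, which overlaps the E-box, was in 16 of 45 windows (35.6% against 19.6%). The shorter cAMP site TGACG, part of the full element, was in 9 of 45 (20.0% against 20.8%). Those windows belong to Khk, Ldha, Pck1, Pfkfb3, Pygl and Slc37a4, with the site of Pck1 at position -90. The STAT5 core TTCNNNGAA, which 8.30% of all windows hold, and the FOXO core TTGTTTAC, which 1.23% hold, were in none of the 45. All were searched on both strands, and windows of 1 gene can overlap. Variants of the cAMP and FOXO elements with other letters were not searched. A match of letters is a description and not a measured binding site.

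The question put to the table was which of these steps differ in RNA level between the sexes. Of the 32 genes 31 reached a mean of 0.5 FPKM over both sexes, and Pck2 did not. In gene bodies 4 of the 31 were higher in male liver (6.68% of all genes tested) and 5 in female liver (7.14%). The remaining 22 missed the threshold. The 9 make up 29.0% of the 31, against 13.8% of 10936 genes of at least 0.5 FPKM. Among genes of at least 10 FPKM, where 20.7% were called, 7 of 25 members were (28%). The 32 genes were chosen with earlier results of these data known, so these shares are a description and not a test. None of the 9 differed by 2-fold, 3 reached 1.5-fold (Gys2, Pfkfb3 and G6pdx), and the folds ran from 1.21 to 1.76. The median log2 ratio of the 31 genes was 0.08, against 0.01 for all genes of at least 0.5 FPKM. Together the 32 genes made up 0.828% of all FPKM in females and 0.775% in male liver.

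**Figure D1:**
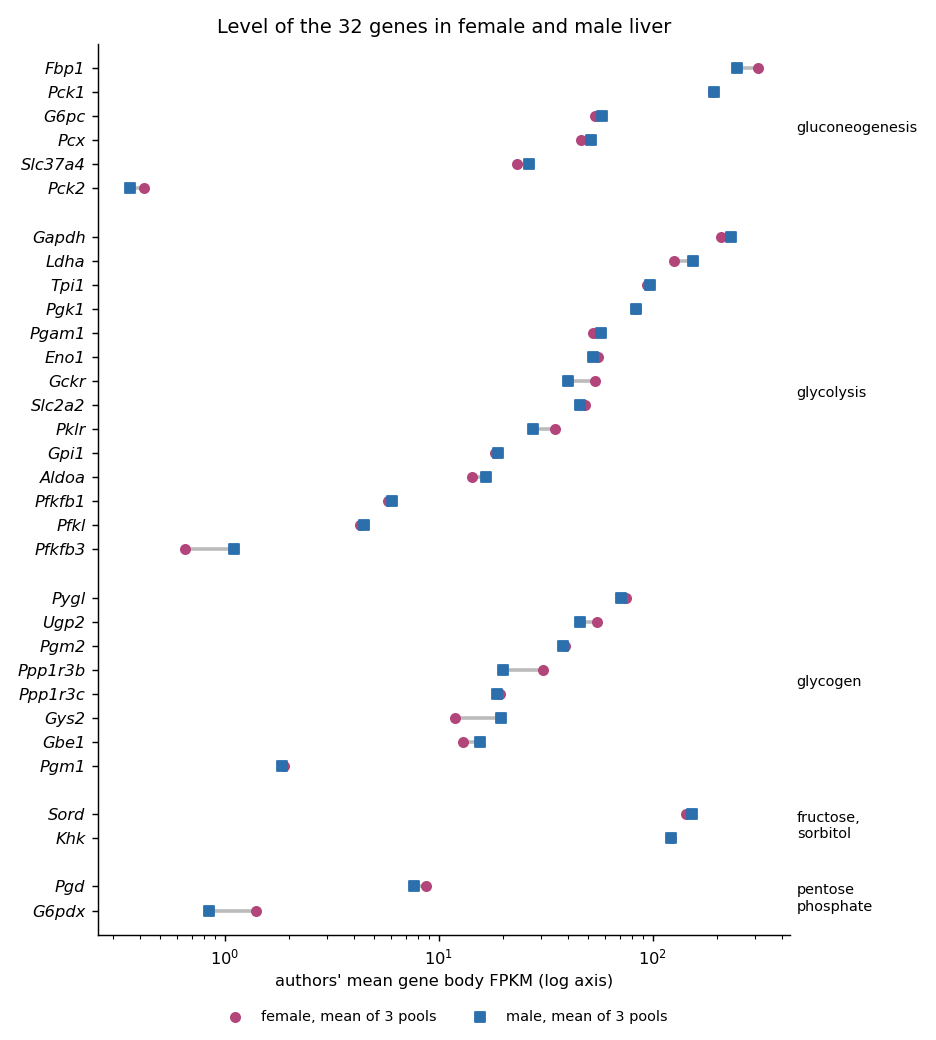
Authors' mean gene body FPKM of the 32 genes (log axis) in female liver (circles) and male liver (squares), each a mean of 3 pools, grouped by pathway step and joined by a grey line. Most pairs nearly coincide over a range from 0.359 to 311.3 FPKM, while Gys2, Ppp1r3b, Pfkfb3 and G6pdx stand visibly apart.

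Of 5 measured genes of gluconeogenesis 1 passed the threshold, toward female liver, where 13.8% of all genes tested passed in either direction. Fbp1, fructose bisphosphatase, which commits carbon to glucose (chromosome 13, 62966113 to 62989642, build mm9), was the most abundant of the 32 genes, with authors' means of 311.3 FPKM in females and 247.8 FPKM in males. In the authors' deposited table it was 1.21-fold higher in females with an adjusted p of 0.0232. Its intron means were 1.70 and 1.40 FPKM, on the same side, with an adjusted p of 1 in the authors' deposited table. Pck1, the cytosolic phosphoenolpyruvate carboxykinase that starts gluconeogenesis from oxaloacetate, had 190.4 FPKM in females and 194.1 FPKM in males (adjusted p of 1 in the authors' deposited table). Pck2, its mitochondrial counterpart, had 0.419 and 0.359 FPKM, so Pck1 exceeded it 454-fold in females and 541-fold in male liver. Pcx, pyruvate carboxylase, had 46.1 FPKM in females and 51.4 FPKM in males and did not pass. The last step is shared by G6pc, the catalytic subunit of glucose-6-phosphatase, and Slc37a4, which carries its substrate into the endoplasmic reticulum. G6pc had 53.6 FPKM in females and 57.6 FPKM in males and did not pass. Slc37a4 came closest to the threshold of the genes that missed it, at 23.3 FPKM in females and 26.5 FPKM in males and an adjusted p of 0.0761 in the authors' deposited table.

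In glycolysis 4 of 14 genes passed, 2 toward each sex, where 13.8% of all genes tested passed in either direction. Gckr, a nuclear regulatory protein of hepatic glucose use (chromosome 5, 31599954 to 31629675), had authors' means of 53.9 FPKM in females and 40.1 FPKM in males. It was 1.29-fold higher in females (authors' deposited table, adjusted p 0.00971). Pklr, the liver and red cell pyruvate kinase that ends glycolysis (chromosome 3, first location 88940064 to 88950516), had 35.0 FPKM in females and 27.4 FPKM in males. In the authors' deposited table Pklr was 1.23-fold higher in females, with an adjusted p of 0.0291. In introns both lay toward females without passing, Gckr at 2.65 against 1.99 FPKM and Pklr at 0.501 against 0.408 FPKM. Red cell precursors also express Pklr, and 4 of their 5 markers were higher in male liver. Their part in the Pklr value was not tested.

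Ldha and Pfkfb3 were higher in male liver. Ldha, the lactate dehydrogenase subunit that interconverts pyruvate and lactate (chromosome 7, first location 54101174 to 54110997), had 125.9 FPKM in females and 154.1 FPKM in males. Its male excess was 1.27-fold (authors' deposited table, adjusted p 0.0137). In introns the Ldha ratio lay on the other side, at 1.19 FPKM in females and 0.974 FPKM in males, with an adjusted p of 1 in the authors' deposited table. Pfkfb3 makes and removes the allosteric activator of phosphofructokinase (chromosome 2, first location 11393058 to 11475556). It had the largest fold of the 32 genes, 1.76-fold higher in males (authors' deposited table, adjusted p 4.32e-06). That fold rests on low levels, 0.652 FPKM in females and 1.11 FPKM in males, or about 70.3 and 120.6 reads per 1000 bases over 3 pools if the pools of a sex had equal FPKM. With a pseudocount of 1 added to the means its log2 ratio was 0.35, against 0.82 for the authors' ratio. Its introns were near 0, at 0.00870 FPKM in females and 0.00963 FPKM in males, and did not pass. Pfkfb1, the liver form of the same enzyme, was more abundant at 5.82 FPKM in females and 6.07 FPKM in males, and did not pass.

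The other glycolytic genes did not pass the threshold. Slc2a2, the glucose transporter of hepatocytes, had 48.2 FPKM in females and 45.7 FPKM in males. Pfkl, the liver phosphofructokinase subunit, had 4.29 and 4.45 FPKM, and Gpi1, phosphoglucose isomerase, had 18.2 and 18.9 FPKM, female first. Aldoa, a muscle-type aldolase, had 14.3 FPKM in females and 16.6 FPKM in males, and with 1.20-fold in the authors' deposited table and an adjusted p of 0.0784 it had the largest fold among the members that missed the threshold. The triose and phosphoglycerate steps serve glycolysis and gluconeogenesis alike. Tpi1, triose phosphate isomerase, had 93.8 FPKM in females and 97.5 FPKM in males, and Gapdh had 208.8 and 231.9 FPKM. Pgk1, phosphoglycerate kinase, had 83.2 and 83.8 FPKM, and Pgam1, phosphoglycerate mutase, had 52.6 and 57.2 FPKM. Those 4 enzymes had male means at or slightly above the female ones, by no more than 1.15-fold in the authors' deposited table. Eno1, enolase, had 55.6 FPKM in females and 52.6 FPKM in males. The location of Eno1 overlaps that of a near-copy, Eno1b, listed at 37.0 and 35.4 FPKM, so the split of reads between them is uncertain. Locations of Pcx, Slc37a4, Tpi1 and Ugp2 also overlap other genes (Lrfn4, Mir7085, Spsb2, and Mir1933 with Vps54), and their levels carry the same doubt if strand was not used.

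Of 8 genes of glycogen metabolism 3 passed, 2 toward male and 1 toward female liver. Of all genes tested 13.8% passed in either direction, and 20.7% of those of at least 10 FPKM. The smallest adjusted p of the 32 genes was that of Gys2. Gys2, the liver glycogen synthase (chromosome 6, 142371133 to 142421629), had authors' means of 11.9 FPKM in females and 19.5 FPKM in males. It was 1.70-fold higher in males (authors' deposited table, adjusted p 7.04e-13). Its introns went the same way, with 0.0916 FPKM in females and 0.155 FPKM in males, 1.85-fold (authors' deposited table, adjusted p 1.2e-05). Ppp1r3b targets protein phosphatase 1 to glycogen, where the phosphatase activates glycogen synthase (chromosome 8, 36438795 to 36451191). It had 30.6 FPKM in females and 19.9 FPKM in males. The authors' deposited table put Ppp1r3b 1.49-fold higher in females in the gene body, with an adjusted p of 0.00143. In introns it was 1.88-fold higher in females in the authors' deposited table, with 0.906 FPKM in females and 0.446 FPKM in males and an intron adjusted p of 0.0205. The level of Ppp1r3b was thus 2.57 times that of Gys2 in female liver and 1.02 times in male liver. Ppp1r3c, another glycogen-targeting subunit, had 19.3 FPKM in females and 18.6 FPKM in males and did not pass.

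Gbe1, the branching enzyme of glycogen (chromosome 16, 70314194 to 70569965), had 12.9 FPKM in females and 15.6 FPKM in males. It was 1.25-fold higher in males (authors' deposited table, adjusted p 0.0276), and its introns, at 0.0118 and 0.0121 FPKM, did not pass. Pygl, the liver glycogen phosphorylase, had 75.3 FPKM in females and 70.8 FPKM in males and did not pass. Ugp2, which makes the UDP-glucose that glycogen synthase uses, had 54.6 FPKM in females and 45.6 FPKM in males, with an adjusted p of 0.156 in the authors' deposited table. The phosphoglucomutase symbols need care, since the accessions listed as Pgm1 and Pgm2 carry each other's symbol in the later RefSeq annotation. The gene listed as Pgm2 (chromosome 4, now Pgm1), which interconverts the glucose phosphates of glycogen metabolism, had 38.8 FPKM in females and 38.0 FPKM in males. The gene listed as Pgm1 (chromosome 5, now Pgm2) had 1.90 and 1.86 FPKM, and neither passed.

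Neither of the 2 members of fructose and sorbitol metabolism, Khk and Sord, passed in gene bodies, where 13.8% of all genes tested did. Khk, ketohexokinase, which traps fructose in the cell, had 121.2 FPKM in females and 121.5 FPKM in males. Sord, sorbitol dehydrogenase, which turns sorbitol into fructose (chromosome 2, 122060575 to 122091073), had 143.5 FPKM in females and 152.8 FPKM in males, with an adjusted p of 0.604 in the authors' deposited table. Its introns alone passed: they had 0.800 FPKM in females and 1.04 FPKM in males, 1.41-fold higher in males (authors' deposited table, adjusted p 0.0146). Whether the gene body and intron ratios of Sord differ from each other was not tested.

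In the pentose phosphate pathway the first enzyme was higher in female liver. G6pdx, glucose-6-phosphate dehydrogenase, which supplies NADPH (X chromosome, 71654825 to 71674500), had 1.40 FPKM in females and 0.842 FPKM in males. It was 1.59-fold higher in females (authors' deposited table, adjusted p 0.00266). With a pseudocount of 1 added to the means its log2 ratio was -0.38, against -0.67 for the authors' ratio. Its introns lay on the other side, at 0.00634 FPKM in females and 0.00980 FPKM in males, with an adjusted p of 1 in the authors' deposited table. The gene body levels stand for about 150.5 and 91.6 reads per 1000 bases over 3 pools if the pools of a sex had equal FPKM. Kupffer cell markers lay the same way, with all 6 higher in female liver, and their part in the G6pdx difference was not tested. The location of G6pdx also overlaps that of Ikbkg, a regulator of NF-kappaB signalling, which was higher in male liver at 5.11 FPKM in females and 7.53 FPKM in males. Whether reads of G6pdx and Ikbkg were told apart by strand is not stated. G6pdx, Pgk1 and Pfkfb1 are the 3 X-linked members, and the other two did not pass. Pgd, which makes the second NADPH of the pathway, had 8.72 FPKM in females and 7.65 FPKM in males and did not pass.

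**Figure D2:**
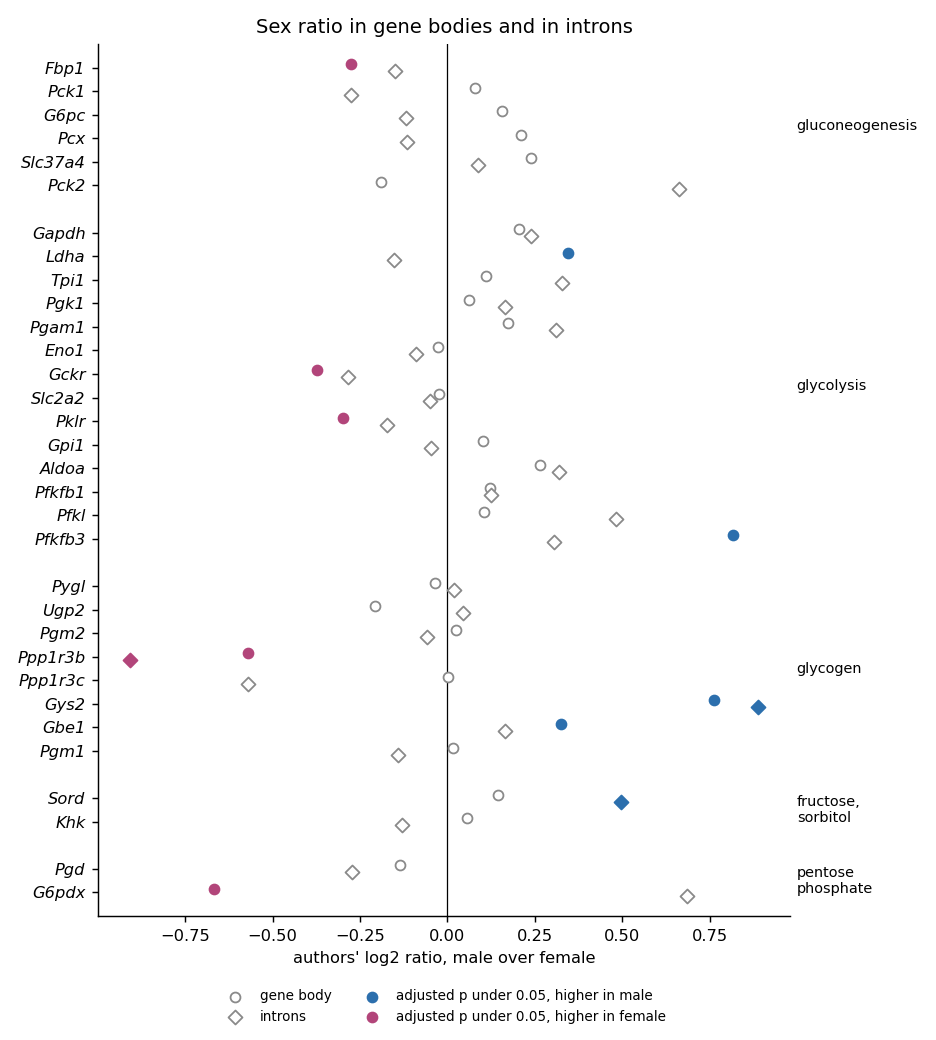
Authors' log2 ratio of male over female for each gene, from gene bodies (circles) and introns (diamonds), with blue for genes higher in male and pink for genes higher in female liver at an adjusted p under 0.05. Gys2 and Ppp1r3b are filled for both measures and on opposite sides, Sord for introns alone, and the intron values of Ldha and G6pdx lie across 0 from their gene body values.

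Intron reads stand largely for RNA not yet spliced, and the intron FPKM was far lower than that of gene bodies. In females it had a median of 0.910% of the gene body FPKM over the 31 genes and 1.47% over all genes of at least 0.5 FPKM. FPKM is scaled to length, so these shares are not shares of reads. In introns 2 of the 31 genes were higher in male (2.28% of all genes tested) and 1 in female liver (1.82%), or 3 in all against 4.1%. Both measures gave the same call for Gys2 and Ppp1r3b, against 3.46% of all genes. The intron ratio had the direction of the gene body for 7 of the 9 called genes, all but Ldha and G6pdx, and for 91.9% of all called genes with an intron value. Over all 31 genes the 2 ratios lay on the same side for 19, and over all genes for 67.2%. How many reads lie behind the intron values was not worked out, since the sources used here give neither the length nor the total behind their FPKM.

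At the 8 steps compared the same isozyme was the most abundant in both sexes: Pfkl, Pfkfb1, Eno1, Pklr, Ldha, Pck1, Gys2 and Pygl. Pygl exceeded Pygb, the brain form of phosphorylase, 67.5-fold in females and 68.5-fold in males. Gys2 exceeded Gys1, the muscle form of glycogen synthase, 23.0-fold in females and 46.7-fold in males, and Gys1 itself did not pass. Pkm, the pyruvate kinase of most other tissues, had 3.72 FPKM in females and 2.95 FPKM in males and did not pass, and Pklr exceeded it 9.40-fold and 9.30-fold. The narrowest margin was for phosphofructokinase, where Pfkl was 2.05 and 1.86 times Pfkm, the muscle form.

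**Figure D3:**
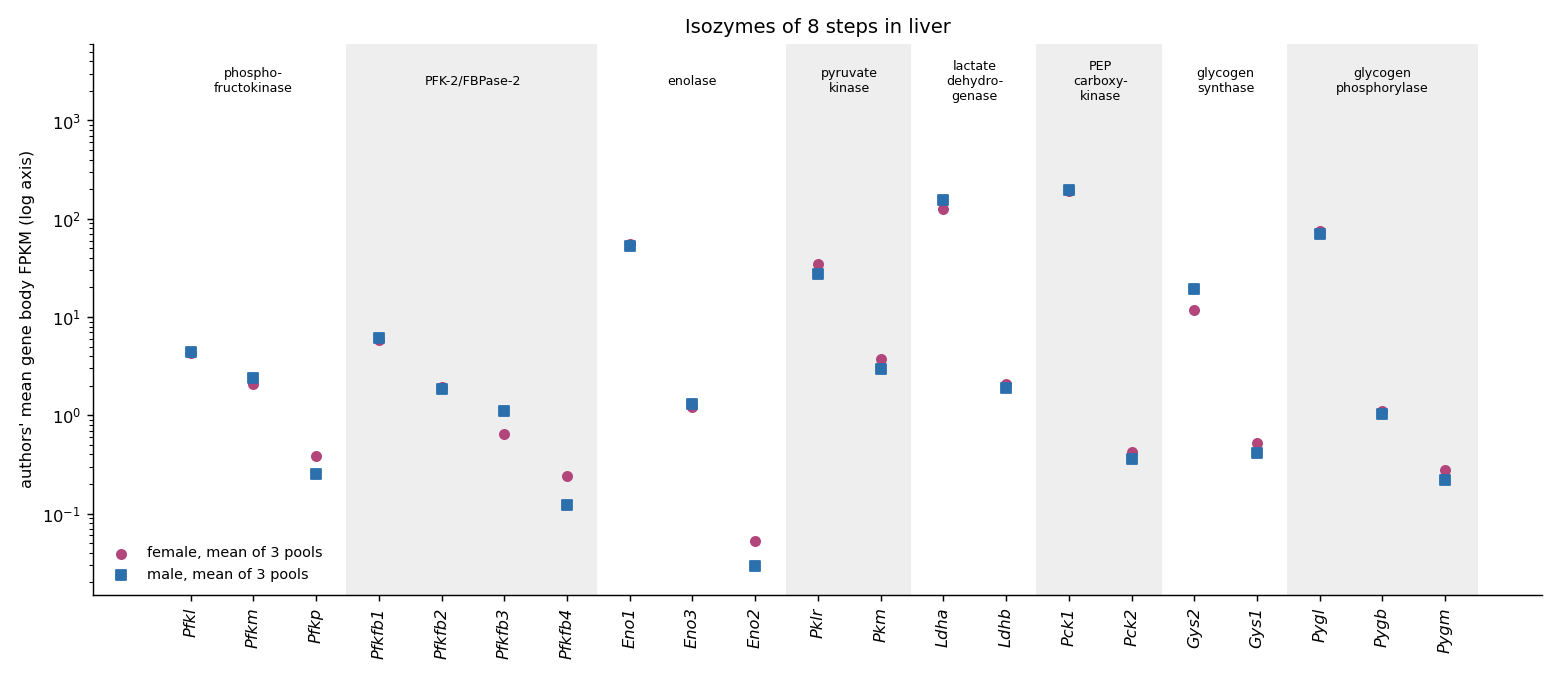
Authors' mean gene body FPKM (log axis) of the isozymes of 8 steps in female (circles) and male liver (squares), each a mean of 3 pools. The same isozyme leads in both sexes at each step, by 2.05 and 1.86 times for Pfkl over Pfkm and by 454-fold and 541-fold for Pck1 over Pck2.

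Of 117 other genes of glucose metabolism found in the table, listed by role, 88 reached 0.5 FPKM. In gene bodies 18 of the 88 passed, 9 toward male and 9 toward female liver, where 6.68% and 7.14% of all genes were. Their median log2 ratio was 0.0032. Stbd1, which anchors glycogen to membranes, was the only 1 of 13 further glycogen genes to pass, against 13.8% of all genes tested. It had 8.99 FPKM in females and 16.9 FPKM in males, 1.96-fold higher in males (authors' deposited table, adjusted p 6.91e-19). Gaa, the lysosomal glucosidase, and Gsk3a, a kinase that inactivates glycogen synthase, were the most abundant of the 12 that did not pass, at 9.38 and 6.35 FPKM in females and 9.12 and 6.40 FPKM in males. H6pd, the dehydrogenase that makes NADPH inside the endoplasmic reticulum, passed as well. It was the only 1 of 7 further pentose phosphate genes to do so, against 13.8% of all genes tested. It lay opposite to G6pdx, with 27.8 FPKM in females and 44.5 FPKM in males, 1.66-fold (authors' deposited table, adjusted p 1.9e-13). Taldo1 and Tkt, transaldolase and transketolase, did not pass, with 34.9 and 15.4 FPKM in females and 37.1 and 15.4 FPKM in males.

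Among 17 genes that bring pyruvate and reducing equivalents to mitochondria, 5 were higher in females (7.14% of all genes tested) and 2 in male liver (6.68%). Both subunits of the mitochondrial pyruvate carrier were among the 5. Mpc1 had 78.8 FPKM in females and 46.0 FPKM in males, 1.65-fold higher in females (authors' deposited table, adjusted p 6.83e-10). Mpc2 had 111.2 and 78.8 FPKM, 1.36-fold (authors' deposited table, adjusted p 0.000228). Pdk4 and Pdk1, kinases that switch off pyruvate dehydrogenase, and Gpt, the cytosolic alanine aminotransferase, made up the rest of the 5, and Pdk1 and Gpt are named after their values were seen, to complete the count. Pdk4 had 2.00 FPKM in females and 1.25 FPKM in males, 1.53-fold (authors' deposited table, adjusted p 0.0256). The 2 genes higher in male liver were Pdhx, a structural subunit of pyruvate dehydrogenase (5.32 against 6.84 FPKM, female first), and Gpd1, the cytosolic glycerol phosphate dehydrogenase (46.8 against 56.9 FPKM). Their folds in the authors' deposited table were 1.33 and 1.26. Mdh1 and Mdh2, the cytosolic and mitochondrial malate dehydrogenases, were the most abundant that did not pass, at 146.9 and 48.5 FPKM in females and 125.9 and 48.9 FPKM in males.

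Further isozymes higher in male liver were Aldoc, the brain aldolase, Ldhd, which oxidises D-lactate, and Bpgm, an enzyme of red cells. Ldhd had 26.6 FPKM in females and 40.9 FPKM in males, 1.59-fold (authors' deposited table, adjusted p 6.83e-10), and its introns passed as well (adjusted p 0.0115). Aldoc had 1.64 and 2.78 FPKM, 1.75-fold (authors' deposited table, adjusted p 1.46e-08). Bpgm had 3.11 FPKM in females and 4.20 FPKM in males, with red cell precursor markers going the same way, and their part in it was not tested. Hk3, the hexokinase of myeloid cells, had 1.16 FPKM in females and 0.562 FPKM in males. It was 1.99-fold higher in females (authors' deposited table, adjusted p 0.0243), beside the female excess of all 6 Kupffer cell markers, whose part in it was not tested. Slc2a9, a urate and sugar transporter on the same list, did not pass, with 6.72 FPKM in females and 6.09 FPKM in males. Mpi, which links fructose and mannose phosphates, was 1.36-fold higher in males in the authors' deposited table, at 2.58 FPKM in females and 3.38 FPKM in males. It was the only 1 to pass of 12 further genes of fructose, sorbitol and galactose, against 13.8% of all genes tested. Dak, which phosphorylates triose made from fructose, and Glyctk, glycerate kinase, did not pass, with 57.0 and 29.2 FPKM in females and 63.8 and 28.2 FPKM in males.

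Of 23 measured genes of hormonal and transcriptional control 3 were higher in females (7.14% of all genes tested) and 1 in male liver (6.68%). Mlxipl, which encodes ChREBP, had 51.9 FPKM in females and 39.9 FPKM in males, 1.25-fold higher in females (authors' deposited table, adjusted p 0.0429). Irs1, a docking protein of the insulin receptor, had 2.21 FPKM in females and 1.62 FPKM in males (adjusted p 0.0436 in the authors' deposited table). Ppargc1a, a coactivator of gluconeogenesis genes, had 0.749 and 0.482 FPKM (adjusted p 0.0457 in the authors' deposited table). Creb3l3, a liver factor active in fasting, had 48.2 FPKM in females and 62.1 FPKM in males, 1.34-fold (authors' deposited table, adjusted p 8.79e-05). Hnf4a and Tat, the most abundant of the 19 that did not pass, had 70.8 and 254.8 FPKM in females and 65.9 and 195.6 FPKM in male liver. Tat, though on this list, encodes an enzyme, tyrosine aminotransferase, and not a regulator. It is also among the hepatocyte markers.

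**Figure D4:**
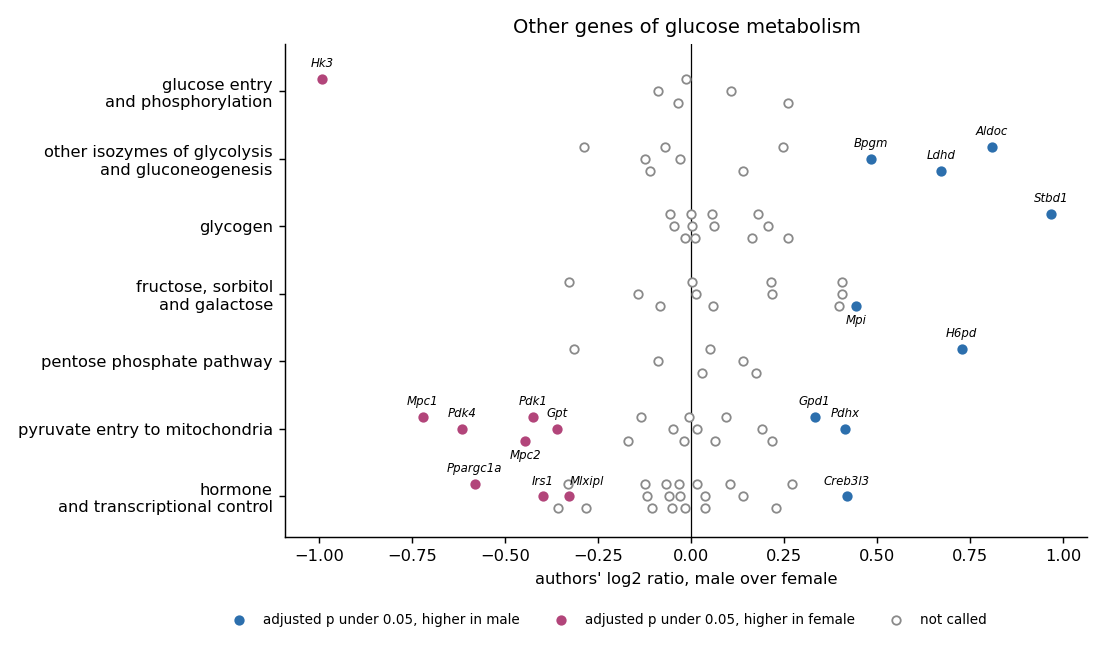
Authors' gene body log2 ratio of male over female for 88 other genes of glucose metabolism by list, with blue for genes higher in male, pink for genes higher in females and open circles for genes that did not pass an adjusted p of 0.05; height within a list has no meaning. Called genes are named, 5 of them toward female among those of pyruvate entry (7.14% of all genes tested), and no called gene reached 2-fold.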

How the data were processed

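The 32 genes and all lists were chosen with earlier results of these data known. The submitters' processing notes name TopHat2, featureCounts, edgeR and the build mm9, without versions or roles. Per the file headers the deposited table holds the authors' mean FPKM per sex over 3 pools, a normalized male to female ratio, its signed fold change (a score, not used here) and an adjusted p-value, for gene bodies and for introns. The intron FPKM is treated as a score within the deposited table, since the length and total behind it are unknown. Neither the p-value adjustment nor the use of strand in counting is given in the sources used here. Intronic reads appear not to be in gene body values, since 929 genes have introns above 0 and a gene body at 0. The counting rule itself is not given. The deposited ratio was 1.04 times that of the means (median of genes at 1 FPKM or more), so a further scaling between sexes is in it. The other text used from the deposited legend is the number of livers per pool. Nothing in the labels says whether a liver entered more than 1 pool, so p-values measure only the spread between these pools.

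Tests on values per pool could not be made, and the authors' comparison was described, as the design foresaw. Genes whose mean over both sexes reached 0.5 FPKM were called measured. Every member is described, members past the threshold with both means, fold and adjusted p. Of the other genes up to 3 called per direction with the largest fold and the 2 most abundant uncalled per list are named, apart from some genes that are not reported here. Library totals were taken from 1228 short RNA genes at 1 location, where a lone read in 1 pool fixes the mean FPKM: 90 genes gave the 3 female and 89 the 3 male totals. Which pool has which total is unknown. Starts were raised by 1 base. Promoters and current symbols come from RefSeq on GRCm38.p6, matched by accession. The recovery of library totals, the calls and the scalings were run on simulated data with planted answers. For the calls and scalings this checks the code alone. The motif search and the overlaps were not tested in this way. Python 3.11.15, numpy 2.4.6 and pandas 2.3.3 were used.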

Additional observations from a re-analysis of the deposited data

How the results depend on the processing

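No paired analysis was possible because the deposited table holds 1 mean per sex, so leaving out a pool, a replicate block, DESeq2 and a filter on counts were not run. At an adjusted p under 0.01, 2 members were higher in male (Gys2, Pfkfb3) and 3 in female liver (Gckr, Ppp1r3b, G6pdx), and at 0.05 with a further limit of 1.5-fold 2 (Gys2, Pfkfb3) and 1 (G6pdx) were. Leaving out genes with more than 1 location left 2 higher in male and 4 in female, since Ldha, Pfkfb3 and Pklr have several. The authors' intron comparison gave 2 and 1, and it put Ldha at a log2 ratio of -0.15 and G6pdx at 0.68, both across 0 from the gene body and neither past the threshold; the cause was not tested. Without a filter on low values, with a minimum mean of 2 FPKM and without Eno1 (an alternative chosen after seeing the data) the members' counts stayed within 1.5 times. The median log2 ratio of the members ran from 0.03 to 0.09 under other scalings and filters and was -0.046 in introns. Over all genes of at least 0.5 FPKM the median moved too, from -0.038 to 0.015 under these scalings, and was 0.0014 in introns. Under 5 scalings of the means 6 of the 45 values of the 9 called members moved by 0.1 or more. All 9 kept their direction, but a pseudocount cannot reverse which of the means is larger. Rescaling multiplies all male means by 1 common factor, so the kept direction says little. The rescaled log2 ratios lay close to those with a pseudocount of 0.1 (Pfkfb3 0.689 and 0.684, G6pdx -0.663 and -0.668). These settings are therefore not separate checks. With a pseudocount of 1 the log2 ratio of Pfkfb3 went from 0.82 to 0.35 and that of G6pdx from -0.67 to -0.38. For the other genes an adjusted p under 0.01 gave 8 higher in male and 4 in female, a minimum mean of 2 FPKM gave 9 and 5, and introns gave 1 (Ldhd) and 2 (Mpc1, Gpt).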

Other observations

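Below the minimum mean of 0.5 FPKM, 2 other genes of glucose metabolism were higher in female liver, and they are named because they make up that count. Pfkfb4, a further form of the enzyme that sets the activator of phosphofructokinase, had 0.241 FPKM in females and 0.121 FPKM in males, 1.95-fold (authors' deposited table, adjusted p 0.0428). It lay opposite to Pfkfb3, which was higher in male liver at 1.11 against 0.652 FPKM. Pgm5, a relative of phosphoglucomutase found at cell junctions, had 0.310 FPKM in females and 0.167 FPKM in males, 1.77-fold (authors' deposited table, adjusted p 0.00106).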
